A study of Mus musculus with 8 samples.

Results

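Very long stretches of H3K27me3 on the X chromosome were examined in female mouse neural stem cells with and without Smchd1. A domain was founded by any X peak longer than 20 kb in any of the 4 peak lists, and such peaks were merged across lists where they overlapped. This rule took 2563 of the 67678 X peaks and gave 1085 domains, which together spanned 52.1 Mb, or 30.5% of the 170.81 Mb of X reached by genes or peaks. The shortest domain measured 20004 bp, the median 35570 bp and the longest 385272 bp, and 89 domains exceeded 100 kb. Just inside the threshold lay peaks of 20004, 20004 and 20006 bp, and just outside it peaks of 19991, 19986 and 19985 bp. The domains were thus chosen by measured peak length, so their lengths, cover and peak numbers are described here without a test.

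The neural stem cell lines came from embryos at E14.5, of a C57BL/6 129/Castaneus mix. All of them carried 1 deleted allele of Smchd1 and were Xist 129-KO/Xist WT-Cast, with the deltaA allele of Xist on the maternal X and a paternal Castaneus X. In the del/del cells the remaining conditional allele had been removed with the retrovirus MSCV-Cre-puro, with puromycin from 24 hours and harvest at 7 days after transduction. The del/fl cells were not transduced, so deletion cannot be told apart from transduction and selection. Each genotype had 2 libraries, and nothing in the labels says that these came from separate embryos. Peaks were called separately in each library and not by parental allele, so every value is for both X chromosomes together. In such bulk samples fewer marked cells and less mark per cell cannot be told apart.

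H3K27me3 is the mark of Polycomb repressive complex 2, and on the inactive X it spreads over long stretches after Xist RNA coats the chromosome. Xist lacking its A repeat cannot silence the chromosome that carries it. Smchd1 is a chromatin protein of the SMC family that binds the inactive X and is needed to keep many of its genes silent and to hold its compact folding. Broad marks are called in pieces when the signal between them falls under the caller's threshold, so the number and length of peaks describe how continuous the called mark is.

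To show the sequence under the mark, 4 gene starts of the domains described further on are printed, a pair that only del/del peaks covered and a pair covered in all libraries. Each window of 300 bp runs from 250 bases before to 50 bases after the start. The windows are RefSeq sequence of GRCm38.p6, the build of the peak lists (mm10), written 5′ to 3′ on the strand of the gene with each CG dinucleotide in capitals. At Akap4 (chrX:7067265-7067564, plus strand) and Fgd1 (chrX:151046920-151047219, plus strand) the window was fully covered in both del/del libraries and bare in both del/fl libraries. At Plac1 (chrX:53114356-53114655, minus strand) and Mamld1 (chrX:71050006-71050305, plus strand) it was fully covered in all 4 libraries.
Akap4: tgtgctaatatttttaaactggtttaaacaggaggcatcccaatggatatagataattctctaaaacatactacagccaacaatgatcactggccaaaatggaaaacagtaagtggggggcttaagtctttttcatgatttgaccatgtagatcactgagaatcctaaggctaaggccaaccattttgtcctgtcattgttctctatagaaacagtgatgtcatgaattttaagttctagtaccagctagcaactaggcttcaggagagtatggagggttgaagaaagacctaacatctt
Fgd1: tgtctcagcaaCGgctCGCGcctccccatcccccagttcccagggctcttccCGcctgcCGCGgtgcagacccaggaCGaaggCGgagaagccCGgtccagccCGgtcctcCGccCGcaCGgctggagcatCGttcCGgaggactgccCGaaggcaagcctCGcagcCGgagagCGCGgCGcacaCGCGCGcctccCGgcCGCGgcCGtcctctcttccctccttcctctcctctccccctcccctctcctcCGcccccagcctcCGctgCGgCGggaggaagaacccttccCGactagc
Plac1: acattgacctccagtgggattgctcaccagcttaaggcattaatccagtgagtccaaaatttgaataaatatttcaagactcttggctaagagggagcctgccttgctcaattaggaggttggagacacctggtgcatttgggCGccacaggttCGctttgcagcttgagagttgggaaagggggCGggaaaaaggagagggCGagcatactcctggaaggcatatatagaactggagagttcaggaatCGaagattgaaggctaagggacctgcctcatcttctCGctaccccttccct
Mamld1: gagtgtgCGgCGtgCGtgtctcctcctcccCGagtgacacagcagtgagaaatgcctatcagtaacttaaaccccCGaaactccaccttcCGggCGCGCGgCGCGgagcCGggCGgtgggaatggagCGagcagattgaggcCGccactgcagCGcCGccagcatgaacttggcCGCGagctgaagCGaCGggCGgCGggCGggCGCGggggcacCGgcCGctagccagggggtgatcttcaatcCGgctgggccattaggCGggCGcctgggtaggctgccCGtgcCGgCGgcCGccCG
The 4 windows held 0, 33, 6 and 36 CG, so a start that only the del/del lists covered could be free of CG or dense in it. A CG, which reads the same on both strands, occurs in 92.7% of the 1223 X start windows and in 94.6% of the 32851 windows of the whole table. Only 3.03% of the X windows hold 33 or more CG.

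X peaks over 20 kb, over 50 kb and over 100 kb were all more numerous in del/del. There were 902 and 1144 peaks over 20 kb in del/del versus 187 and 330 in del/fl. Over 50 kb there were 135 and 275 against 6 and 20. The class over 100 kb held 12 and 47 in del/del, while del/fl had 0 in both libraries. The genotypes did not overlap in any of these classes, although the 2 del/del libraries differed widely from each other. The longest X peak measured 162637 and 212123 bp in del/del versus 84091 and 79612 bp in del/fl. Peaks over 20 kb held 39.2% and 52.1% of all covered X in del/del versus 9.96% and 15.9% in del/fl. At the short end there were 7543 and 6789 peaks over 2 kb in del/del versus 7313 and 7621 in del/fl, with overlapping libraries.

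**Figure D1:**
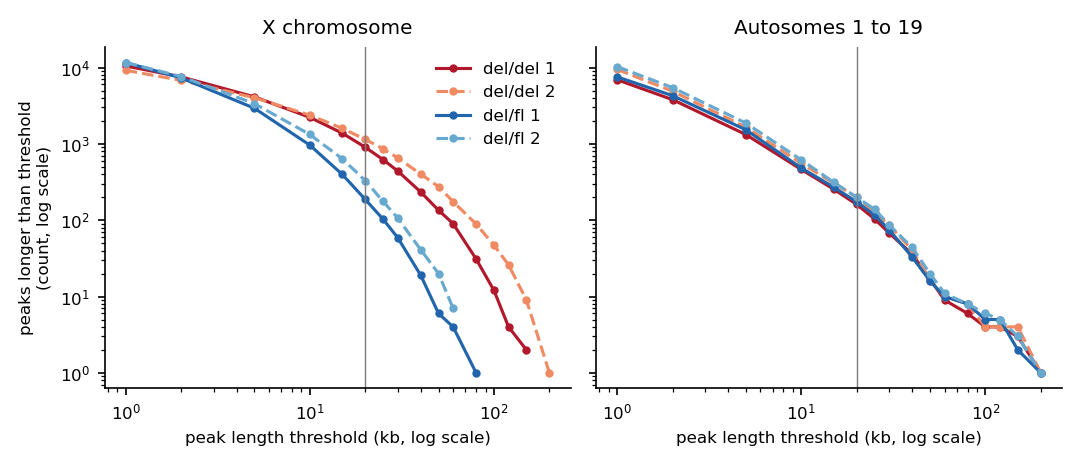
Number of peaks (log scale) longer than each length (kb, log scale) in each of the 4 libraries, on X (left) and on autosomes 1 to 19 (right), with a grey line at 20 kb. On X the del/del curves lie above the del/fl curves from 5 kb upward, and on the autosomes all 4 curves run together.

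On the autosomes, which the rule did not use, the same length threshold found 161 and 199 peaks in del/del versus 174 and 200 in del/fl. The libraries overlapped, and the means of 180 ± 26.9 and 187 ± 18.4 (SD, n = 2) gave an exact two-sided permutation p = 0.667. With 2 against 2 libraries this test cannot go below 0.333. Merged in the same way, the autosomal peaks made 227 domains with a median length of 29002 bp. Peaks filled 91.8% and 95.2% of their length in del/del versus 93.5% and 96.1% in del/fl.

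Total tags of the enriched libraries numbered 24013734 and 21938857 in del/del versus 20144605 and 18381858 in del/fl, so both del/del libraries were the deeper. After removal of duplicates MACS2, the authors' peak caller, used 14064030 and 12819919 tags in del/del versus 13288499 and 11793402 in del/fl, and in these the genotypes overlapped. Chromatin extract tags numbered 20770551 and 31629404 in del/del versus 19579060 and 15525700 in del/fl before sampling to the depth of the enriched library, again with both del/del values higher. The part of total and control tags in the X results was not tested. Of 12 neural stem cell markers, including Nes, Sox2 and Pax6, 11 had no H3K27me3 peak within 2.5 kb of either gene end. Of 6 neuronal markers 5 had such a peak, with a mean cover of 29.04% and 33.4% in del/del versus 34.7% and 34.96% in del/fl. Among markers of other cells, 4 of 5 for blood and microglia, 2 of 4 for fibroblasts, 2 of 3 for endothelium and 3 of 3 for pluripotent cells had no peak, so a bare marker does not by itself identify the cells.

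Most domains were founded by del/del peaks. A long peak of del/del alone founded 792 domains (29.97 Mb), long peaks of both genotypes met in 287 (22.0 Mb), and del/fl alone founded 6 (0.151 Mb). The domains shared by both genotypes were the longer ones, with a median of 63549 bp against 30549 bp for those of del/del alone. In 384 domains a long peak was called in del/del 1 and 2 but in neither del/fl list, and in 108 it was called in all 4. The replicates were uneven: 340 domains had a long peak in del/del 2 only and 68 in del/del 1 only.

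Inside the domains the mark was close to continuous in del/del and broken in del/fl. Peaks of any length filled 94.5% and 98.8% of the domain length in del/del versus 72.6% and 79.2% in del/fl. These amount to 96.6% ± 3.03 and 75.9% ± 4.64 (SD, n = 2), a difference of 20.8 percentage points. In a separate run in which only del/fl peaks could found domains, there were 371 domains and the difference was 4.21 points. A domain was filled by a mean of 3.24 and 1.52 peaks in del/del versus 8.90 and 7.51 in del/fl. In del/del 2 a single peak filled 715 of the 1085 domains, and in del/del 1 it filled 211. In del/fl this was so for 11 and 16 domains, whereas 339 and 250 domains held 10 or more peaks. Cover exceeded 95% in 558 and 1007 domains in del/del and in 21 and 40 in del/fl. It fell short of 50% in 0 domains in either del/del library and in 140 and 60 in del/fl.

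**Figure D2:**
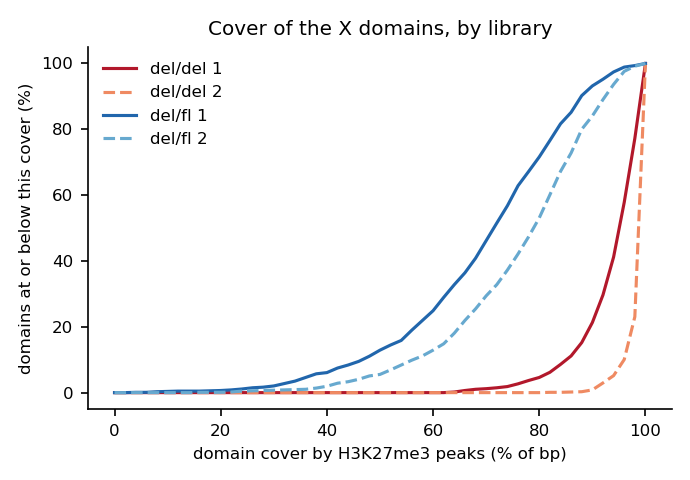
Share of the 1085 domains (%) at or below each level of cover by peaks (% of bp), 1 curve for each library. The median domain had a cover of 95.1% and 100% in del/del 1 and 2 and of 71.6% and 78.9% in del/fl 1 and 2.

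Domain by domain, both del/del libraries were more covered than both del/fl libraries in 1022 of 1085 (94.2%), the opposite held in 2, and the libraries overlapped in 61. Over all 6673 windows of 20 kb on X with a peak in any library, the first pattern was found in 82.2% and the opposite in 0.27%. The domains' share is above that background, but long del/del peaks chose most of them, so nothing is read from the difference. The rest of X was also more covered in del/del, at 28.2% and 33.6% against 13.4% and 16.5%. The domains held 59.6% and 56.4% of all covered X in del/del versus 70.4% and 67.8% in del/fl. Of the 227 autosomal domains, both del/del libraries were higher in 36 and both del/fl libraries in 85, which is 15.9% and 37.4%.

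In most domains a long del/del peak ran over separate shorter del/fl peaks. A domain was counted as joined when a del/del peak over 20 kb spanned at least 2 peaks of a del/fl library, none of them over 20 kb. By this count 988 domains were joined with respect to del/fl 1 and 893 with respect to del/fl 2, which made 1019 (93.9%) in at least 1 library and 862 (79.4%) in both. The share was 60.2% and 56.7% where libraries of 1 number founded the domains and those of the other number were read, and 52.2% with peaks up to 3 kb apart joined. In 887 domains the joined peaks of at least 1 del/fl library numbered 5 or more and in 289 they numbered 10 or more, up to 38. The opposite, a long del/fl peak over 2 or more shorter del/del peaks, was found in 46 domains, 41 of them in del/del 1 and 11 in del/del 2. The length rule leaves little choice but joining where del/fl has no long peak, and all 792 domains of del/del alone were joined. It would also have admitted domains on bare sequence. There were 0 domains without a del/fl peak, and each held at least 1 peak in both del/fl libraries. How often other X stretches of such length hold a del/fl peak was not counted, so nothing is read from this. On the autosomes 45 of 227 domains were joined (19.8%) and 64 showed the opposite (28.2%).

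The stretches without a del/fl peak inside the long del/del peaks, here called gaps, were short. Their length also depends on how close calls may lie before the caller joins them, which was not tested. The long del/del peaks held 10198 gaps of del/fl 1, with a median of 1084 bp, and 8526 gaps of del/fl 2, with a median of 1044 bp. Gaps under 2 kb made up 83.0% and 86.6% of them, and only 136 and 52 exceeded 5 kb. Together they amounted to 14.2 and 10.8 Mb, beside 37.6 and 41.0 Mb that del/fl peaks already covered. The del/fl pieces beside the gaps numbered 9629 and 8142, with medians of 2098 and 2673 bp. They were fewer than the gaps, so some gaps lay at an end of a long del/del peak and not between 2 pieces.

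Replicates also broke each other's long peaks, though to a lesser degree. Of the 902 long peaks of del/del 1, 831 overlapped a long peak of del/del 2 and 70 were split there (7.76%). Of the 1144 long peaks of del/del 2, 369 were split in del/del 1 (32.3%), against 983 in del/fl 1 (85.9%) and 850 in del/fl 2 (74.3%). For del/del 1 the split share was 81.7% in del/fl 1 and 69.4% in del/fl 2. Between the del/fl libraries, 51 of the 187 long peaks of del/fl 1 were split in del/fl 2 (27.3%) and 197 of the 330 of del/fl 2 were split in del/fl 1 (59.7%). Split shares therefore varied widely within a genotype, and those of del/del peaks read in del/fl lay above all 4 within-genotype shares.

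**Figure D3:**
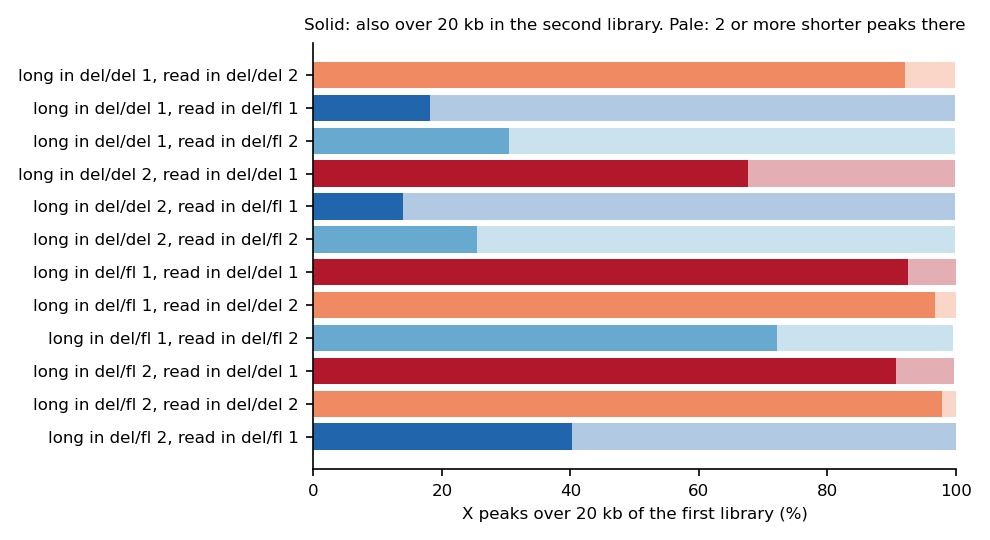
Fate of the X peaks over 20 kb of each library when read in each other library (% of those peaks). Solid bars are peaks that overlap a peak over 20 kb there, pale bars those that meet 2 or more shorter peaks, and the colour is that of the library read. Solid bars reach 92.5% and 96.8% for the long peaks of del/fl 1 read in del/del versus 18.1% and 14.0% for those of del/del read in del/fl 1.

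At the long peaks chosen in del/fl, the longest overlapping peak was mostly longer in del/del. The choice favours del/fl, while taking the longest overlapping peak favours the library that is read. Peak length is also what the rule used, so the lengths and counts are described only. The 187 long peaks of del/fl 1 had a median length of 25782 bp. The longest peak over them had a median of 44948 bp in del/del 1, 63095 bp in del/del 2 and 26152 bp in the other del/fl library. The del/del peak was the longer in 150 (80.2%) and 178 (95.2%) of them, and the del/fl 2 peak in 83 (44.4%). The 330 long peaks of del/fl 2, with a median of 25812 bp, were met by peaks with medians of 40962 bp and 53587 bp in del/del versus 17813 bp in del/fl 1. In the del/fl library not used to choose them, fewer than 50% of the peaks were longer, with 61 of 330 (18.5%) in del/fl 1, whereas in both del/del libraries most were.

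The ends of long peaks lay within mark that went on beyond them. In the first kb outward of the ends of the del/fl 2 peaks, cover was 77.0% and 83.1% in del/del, 52.1% in del/fl 1 and 5.35% in del/fl 2 itself, which the ends fix. From 10 to 20 kb outward it was 88.9% and 91.6% in del/del versus 72.8% and 78.7% in del/fl. Outward of the del/del 2 peaks, cover at 10 to 20 kb was 83.7% and 88.1% in del/del versus 59.8% and 66.8% in del/fl. Sequence beside a long peak, which can belong to other domains, was thus more covered in every library than X outside the domains. The median gap from a domain to the next was 15471 bp, and 455 of the 1085 lay within 10 kb of the next.

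**Figure D4:**
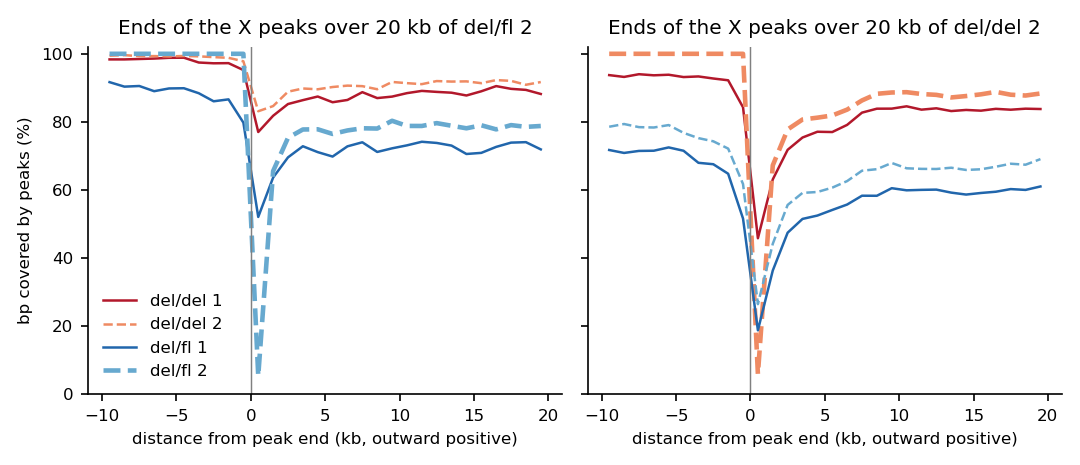
Percent of bp covered by peaks of each library against distance (kb) from the ends of X peaks over 20 kb, outward positive, for the ends of del/fl 2 (left) and del/del 2 (right), whose own curve is thick. The dip at 0 reaches 5.35% and 5.83% in the library that set the ends, and the del/del curves stay above the del/fl curves outward of 2 kb.

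The called mark was also somewhat higher in del/del. Pileup, the number of stacked tags that MACS2 reports for a peak, averaged 0.713 and 0.736 per 1000000 tags over the covered part of the domains in del/del versus 0.636 and 0.651 in del/fl. Fold enrichment, the caller's ratio of pileup to local background, averaged 4.24 and 4.15 in del/del versus 3.75 and 3.67 in del/fl. The genotypes did not overlap in either value, and the ratio of mean pileups was 1.13. These are the authors' values per peak and exist only where a peak was called, so del/fl is read over its better-marked part alone. Outside the domains the fold enrichment was 3.74 and 3.57 in del/del versus 3.49 and 3.36 in del/fl. Autosomal domains stood higher, at 8.98 and 8.67 in del/del versus 8.85 and 9.25 in del/fl, with overlapping libraries. Few long X peaks were strong: 85 and 72 in del/del versus 7 and 9 in del/fl had a −log10 q of at least 5.

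The shorter domains showed the wider difference in cover, but size was not separated from the founding peaks. The domains of del/del alone, with the lower median length, differed by 26.9 points, and those of both genotypes by 12.6 points. In the 414 domains of up to 30 kb, cover was 91.3% and 98.6% in del/del versus 63.3% and 71.2% in del/fl, a difference of 27.7 points. In the 89 domains over 100 kb it was 96.5% and 98.9% against 79.8% and 85.8%, a difference of 14.9 points. Per 100 kb, the domains over 100 kb held 3.99 and 1.78 peaks in del/del versus 14.9 and 11.2 in del/fl. In the 108 domains with a long peak in every library, del/del had 97.1% and 98.9% cover and del/fl 86.5% and 89.8%. Of these, 97 were separated by genotype with del/del higher. That pattern held in 94.2% of all 1085 domains and in 82.2% of all 20-kb X windows with a peak, so nothing is read from the count.

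Domains were spread unevenly over X. They occupied 61.1% of the bin at 160000001 to 170000000, 55.5% of that at 50000001 to 60000000 and 54.6% of that at 70000001 to 80000000. In the bins that start at 20000001 and 120000001, and in the short last bin, there were 0 domains, in that at 110000001 there were 2, and in the first 10 Mb there were 9. Distal of 4933407K13Rik, the Dxz4 locus, a boundary in the folding of the inactive X (chrX:75725458-75764699), domains occupied 34.4% of the sequence. They occupied 25.7% proximal of it, where gene starts were denser, at 8.25 per Mb against 6.29 per Mb distally. Cover inside the domains was alike on both sides, at 95.2% and 98.7% in del/del versus 72.6% and 79.6% in del/fl proximally and 94.1%, 98.8%, 72.6% and 78.9% distally.

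The domains were rich in genes. Protein-coding gene bodies made up 47.5% of the domain length and 17.6% of the rest of X. That rest includes the bins without any domain, and how well reads map there was not examined. Gene starts numbered 12.6 per Mb in the domains and 4.76 per Mb elsewhere, so 658 of the 1223 X starts lay in a domain (53.8%). Of 966 protein-coding genes on X, 559 overlapped a domain and 304 lay wholly inside. No protein-coding gene touched 412 domains (38.0%), a single gene touched 518, and the most in any domain was 10. Starts in domains had a mean of 11.1 CG per window and 53.6% GC, against 8.36 CG and 49.8% GC at the other X starts.

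Within the long del/del peaks, gene starts were found more often in the part that del/fl peaks already covered than in the gaps. The covered part of del/fl 1 held 532 starts, or 14.1 per Mb, and its gaps held 123, or 8.64 per Mb. For del/fl 2 the values were 575 starts, or 14.0 per Mb, and 80 starts, or 7.38 per Mb. Gene bodies made up 43.1% of the gaps and 49.3% of the covered part in del/fl 1, and 43.0% and 48.8% in del/fl 2. A start window that met a peak in each del/del list but in no del/fl list was found at 33 of the 658 domain starts (5.02%), beside 6.46% of all X starts. Those 33 included Xiap, an inhibitor of caspases, Rbbp7, a histone-binding subunit of Polycomb repressive complex 2, and Zmym3, and the 3 were chosen after their values were seen. Windows and not genes were counted, and Xiap and Zmym3 each had more than 1 of the 33. The opposite was found at 0 domain starts and at 4 X starts in all (0.327%).

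The longest domain, chrX:99202434-99587705 with Pja1, a ubiquitin ligase gene, was cut into 13 and 8 peaks in del/del versus 46 and 26 in del/fl. Its cover was 96.5% and 98.4% in del/del versus 85.7% and 93.3% in del/fl. Next came chrX:53006993-53376404, which held Plac1, a gene known from the placenta, with Fam122b and Fam122c. There 8 and 3 del/del peaks took the place of 62 and 50 del/fl peaks, and cover was 98.3% and 99.5% against 79.8% and 83.8%. A del/del peak of this domain spanned 38 peaks of del/fl 1, the most of any domain. The domain at chrX:70986719-71338726 over Mamld1 and Mtm1, the myotubularin gene, had 98.7% and 99.1% cover in del/del versus 89.3% and 92.1% in del/fl.

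A single peak of 212123 bp in del/del 2 filled chrX:101117032-101329154, over Snx12, a sorting nexin gene, Med12, a Mediator subunit gene, and Nlgn3, a synaptic adhesion gene. The same stretch held 8 peaks in del/del 1, 36 in del/fl 1 and 21 in del/fl 2, which covered 97.0%, 72.7% and 84.7%. Med12 itself was fully covered in both del/del libraries, 66.3% covered in del/fl 1 and 99.3% covered in del/fl 2, so its del/fl libraries lay far apart. At chrX:150942687-151132755, over Fgd1, an activator of the GTPase Cdc42, Gnl3l and Tsr2, 7 and 3 del/del peaks spanned 41 and 34 del/fl peaks. Cover there was 97.3% and 99.0% in del/del versus 70.1% and 77.0% in del/fl.

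Other domains among the 10 longest followed the same pattern. At chrX:36010419-36188912, over Dock11, another activator of Cdc42, and Il13ra1, an interleukin 13 receptor gene, cover was 94.4% and 98.4% in del/del versus 56.2% and 75.2% in del/fl. At chrX:74965058-75152173, over Gab3, Mpp1 and Dkc1, the dyskerin gene, it was 98.3% and 98.1% against 75.8% and 81.6%. At chrX:73464245-73654199, over the calcium pump gene Atp2b3, Bgn and the phosphatase gene Dusp9, it was 97.4% and 98.5% against 80.7% and 89.0%. Dusp9 was fully covered in both del/del libraries and 51.1% and 35.6% covered in del/fl. At chrX:143542658-143717040 in Pak3, a kinase gene of dendritic spines, it was 93.2% and 98.9% against 80.5% and 82.0%. At chrX:11339986-11569176, which holds no protein-coding gene, it was 96.0% and 98.8% against 80.4% and 86.0%. In each of these 5 domains the lower del/del value exceeded the higher del/fl value. That was so in 94.2% of all domains and in 82.2% of all 20-kb X windows with a peak, so it does not set these 5 apart.

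Among the 6 domains with the most joined peaks of 1 del/fl library were also 3 shorter ones. The domain chrX:145439095-145594250 over Amot, the angiomotin gene, had 32 joined peaks in del/fl 1 and 5 in del/fl 2. That at chrX:134665702-134819534 over Armcx4, Armcx6 and Armcx2 had 8 and 27. At chrX:163497111-163611392 over Grpr, the receptor of gastrin-releasing peptide, there were 27 and 18. In the Snx12 domain, also among the 6, there were 36 and 0, with 3 peaks over 20 kb in del/fl 2. In the Amot domain the libraries held 11 and 1 peaks in del/del versus 32 and 21 in del/fl. Armcx6 and Armcx2 were themselves fully covered in all 4 libraries. Armcx4 was fully covered in both del/del libraries and 71.3% and 84.3% covered in del/fl, so the breaks reached into that gene.

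**Figure D5:**
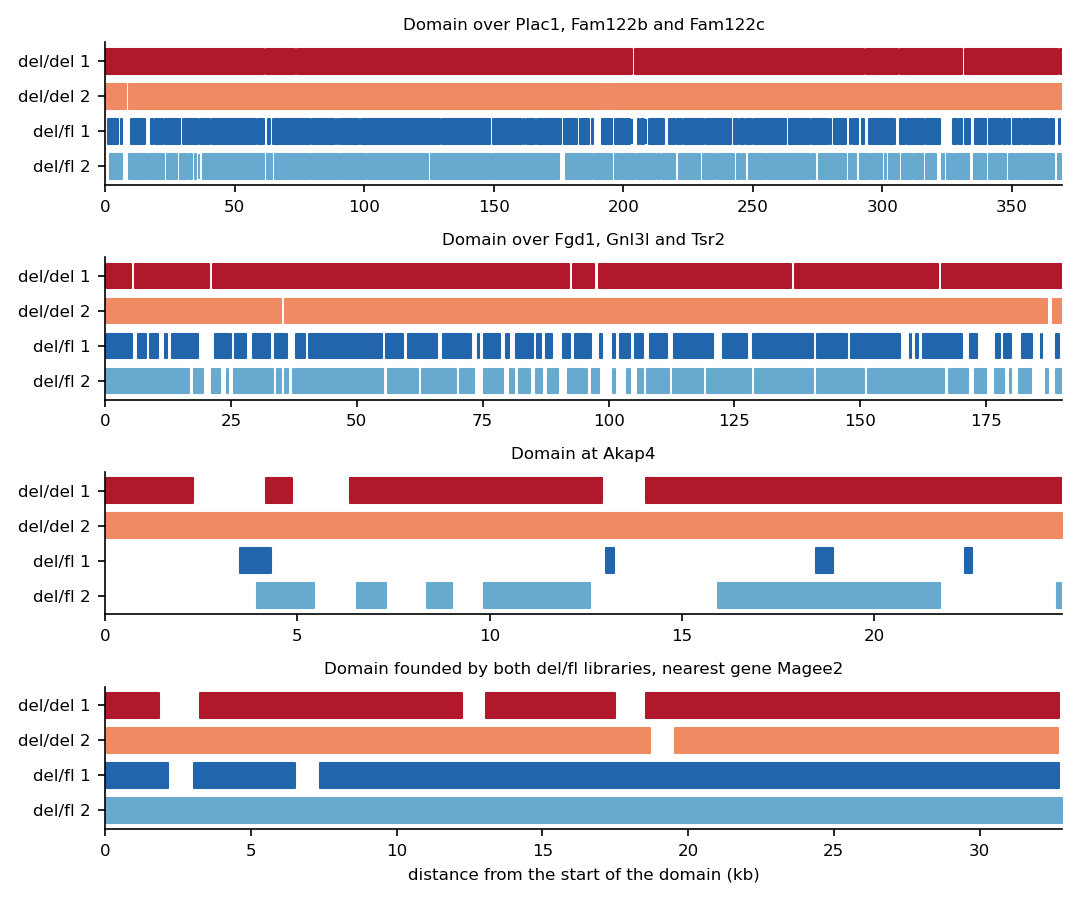
Peaks of each library (rows) along 4 domains, in kb from the start of the domain. Gaps narrower than the drawing do not show. The domains over Plac1 and Fgd1 hold 62 and 41 peaks in del/fl 1 against 3 and 3 in del/del 2, the Akap4 domain has 6.62% cover in del/fl 1, and the domain near Magee2 is nearly filled in all 4 libraries.

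The largest differences in cover belonged to short domains that a long peak of del/del 2 alone had founded. In each, that peak fixed the cover of del/del 2 at 100%. At chrX:63194980-63216733, 902896 bp from the nearest protein-coding gene, cover was 67.6% and 100% in del/del versus 3.94% and 23.1% in del/fl. At chrX:7043412-7068293, reaching the start of Akap4, which encodes an anchoring protein of the sperm tail, it was 81.7% and 100% against 6.62% and 46.4%. Fewer than 50% of the base pairs of these 2 were marked in either del/fl library. Others lay at chrX:105924741-105945715 at Atrx, a chromatin remodeller gene, and at chrX:147079237-147109944 in Htr2c, a serotonin receptor gene. The Htr2c domain was 87.8% and 100% covered in del/del versus 29.8% and 23.0% in del/fl. The remaining 3 lay at Cypt3, at 14892 bp from Clcn5 and at 226614 bp from Mageb18.

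The 6 domains founded by del/fl alone went both ways. In each, a founding peak fixed the cover of 1 del/fl library at 100%. Their summed cover was 88.3% and 94.9% in del/del versus 95.4% and 91.8% in del/fl, with overlapping libraries. They lay at Thoc2, an mRNA export gene, Tktl1, Pls3, the plastin 3 gene, and Magee1, and at 69449 bp from Magee2 and 120971 bp from Olfr1323. The domain at Thoc2, chrX:41789578-41810314, was 84.3% and 95.9% covered in del/del versus 100% and 57.9% in del/fl. Its del/fl libraries lay on either side of del/del, with the 100% set by the founding peak. The domain near Magee2, chrX:104926716-104959543, was the only 1 of the 1085 with a long peak in both del/fl libraries and in no del/del library. It was 89.7% and 96.7% covered in del/del versus 94.3% and 100% in del/fl. The most negative difference, of 9.25 points against del/del, was at Magee1 (chrX:105118263-105147625), with 78.1% and 89.2% in del/del versus 85.8% and 100% in del/fl. A further domain 28666 bp from Magee1 had 95.3% and 93.0% against 95.5% and 99.2%. Thus 3 of the 5 smallest differences lay near Magee1 and Magee2. The del/fl libraries were both the higher in only 2 of the 1085 domains, the last-named and that at Pls3, which was 92.8% and 96.6% covered in del/del versus 96.8% and 100% in del/fl.

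Of 44 X-linked genes of the brain and synapse 39 overlapped a domain, beside 559 of all 966 X protein-coding genes (57.9%). Of 43 with a peak 38 (88.4%) had a gene body more covered in both del/del than in both del/fl libraries, with 0 the opposite. Over all 801 X protein-coding genes with a peak this was so for 567 (70.8%), with 1 the opposite (0.125%), and the median difference was 17.9 points, as in the list. Dmd, the dystrophin gene, crossed 24 domains with 1220783 bp of overlap, and was 76.3% and 85.8% covered in del/del versus 49.1% and 51.7% in del/fl. Its body held 341 and 193 peaks in del/del versus 505 and 498 in del/fl. Frmpd4, a postsynaptic scaffold gene, crossed 16 domains, with 89.9% and 93.4% cover against 66.8% and 73.4%. Il1rapl2 crossed 19 domains, Tenm1, a teneurin gene, 10 and Fgf13 8, and Tenm1 was 81.1% and 87.4% covered against 53.6% and 55.8%. Outside the domains lay Diaph2, Kdm5c, Pcdh11x, Syn1 and Syp. A longer gene can meet a domain more easily, and Dmd spanned 2390387 bp and Frmpd4 1105936 bp. The part of gene length in the shares of this list was not tested.

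X-linked developmental regulators were reached in 17 of 20 cases. Both del/del libraries were higher at 13 of 20 with a peak (65.0%), and the median difference was 11.8 points. Over all X protein-coding genes 57.9% overlapped a domain and 70.8% of those with a peak were higher in del/del, so the second share of the list lay near and below the background. Nhs, the gene of Nance-Horan syndrome in humans, was 95.7% and 97.2% covered in del/del versus 89.0% and 92.2% in del/fl. Klf8, a Krüppel-like factor gene, was far less covered in del/fl, at 89.0% and 94.8% against 53.5% and 55.0%. Bcor, a corepressor gene of a Polycomb repressive complex 1 variant, had 97.6% and 97.3% against 77.6% and 79.5%. Eda, the ectodysplasin gene, crossed 6 domains. Foxp3, Gata1 and Pou3f4 had no domain.

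Housekeeping genes were reached in 23 of 30 cases, with both del/del libraries higher at 23 of 29 (79.3%) and a median difference of 24.6 points. The shares over all X genes were 57.9% and 70.8%, with a median of 17.9 points, so the 79.3% lay near the background. Stag2, a cohesin subunit gene, crossed 5 domains and was 91.5% and 94.9% covered in del/del versus 64.9% and 70.5% in del/fl. Taf1, a TFIID subunit gene, lay wholly in 1 domain, with 95.1% and 100% against 74.4% and 77.2%. Atp7a, a copper transporter gene, and Gk, the glycerol kinase gene, had 94.3% and 96.7% against 77.5% and 83.8%, and 91.6% and 95.6% against 74.9% and 81.5%. At Sms, the spermine synthase gene, the del/fl libraries lay apart, at 35.1% and 62.5%, below 84.6% and 91.1% in del/del.

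Of the germline families a domain reached 42 of 88 annotated members, and both del/del libraries were higher at 42 of 74 with a peak (56.8%), beside 57.9% and 70.8% over all X genes. These families hold near-identical copies, and how reads were assigned to them is not given in the sources used here, so counts over them are uncertain. Tex11, a meiosis gene, crossed 5 domains with 80.02% and 86.0% cover in del/del versus 66.8% and 70.5% in del/fl. Luzp4, Usp26, Tktl1 and Mageb18 also overlapped domains by more than 20 kb. Tktl1 showed overlapping libraries, with 94.9% and 88.3% against 77.5% and 93.6%.

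Of genes that escape X inactivation a domain reached 5 of 18, and 9 of 18 had a peak, 6 of them with both del/del libraries higher (66.7%). Of all 966 X genes 559 met a domain and 801 had a peak, 70.8% of the latter with del/del higher, which is close to the share of the escape genes with a peak. Mid1 overlapped domains by 84875 bp but was only 32.4% and 41.8% covered in del/del versus 32.6% and 39.0% in del/fl, with overlapping libraries. Car5b, a mitochondrial carbonic anhydrase gene, was 91.7% and 90.8% covered in del/del versus 59.1% and 59.5% in del/fl. Syap1 had 89.3% and 91.8% against 43.7% and 66.7%, and Bgn, the biglycan gene, 98.8% and 90.2% against 68.1% and 87.1%. Firre, a noncoding RNA gene, had 16.2% and 18.9% against 18.4% and 20.5%. Xist, Kdm6a, Kdm5c, Ddx3x and Eif2s3x had no domain.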

How the data were processed

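Chromatin immunoprecipitation of H3K27me3 was sequenced for 2 del/del and 2 del/fl libraries. Whole-cell extract from 4 further samples served as the control input of the peak lists. Bcl2fastq, Bowtie 0.12.9 and mm10 are named in the submitters' processing notes. MACS2 2.1.0.20140616 made each list in broad mode from 1 library, per the file headers. Its q-value threshold was 0.05, duplicates were cut to 1 tag, local background spanned 1000 and 10000 bp, and the control was sampled to the depth of the enriched library. As deposited, pileup is the signal of stacked tags and fold enrichment its ratio to local background, per the file headers, while p-value and q-value are deposited as −log10. The deposited length of a peak counts both end bases.

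Domains were X peaks over 20000 bp merged across lists where they overlapped by at least 1 bp. Cover counts bp under peaks of any length. Peak values were averaged by covered length, and pileup was scaled to 1000000 tags used. No low values were filtered. Genes, 1223 X start windows of 1046 genes and their sequence came from RefSeq tables of GRCm38.p6. Python 3.11.15, numpy 2.4.6, pandas 2.3.3, scipy 1.17.1 and matplotlib 3.10.9 were used. In simulated lists the interval code found 400 of 400 domains and 200 of 200 joins. The members, gene lists and naming rule were chosen with earlier results of these data known. Named were the 10 longest domains, the 8 largest and 5 smallest differences in cover, the 6 with most joined peaks, those founded by del/fl alone, the 5 longest found in all 4 libraries, up to 3 genes of each, and up to 5 members of each list by overlap, of which 1 domain and 1 list member are not reported here. Start windows were printed for genes of named domains. Alternatives were other length and q thresholds, equal lists, joining nearby peaks, other founding libraries and leaving out each library. Replicates of a genotype may share an embryo, and a line may be shared between genotypes, so spreads may be technical.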

Additional observations from a re-analysis of the deposited data

How the results depend on the processing

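Thresholds set the number of domains, which was 2081 with peaks over 10 kb and 645 with peaks over 30 kb. It was 371 when only del/fl peaks could found domains and 108 with a −log10 q of at least 5. Cover stayed higher in del/del in every alternative run, by 20.8 points as reported, 29.6 with a −log10 q of at least 2, 62.4 with at least 5, 4.21 when del/fl peaks founded the domains, and 13.7 and 20.8 when libraries of 1 number founded them and those of the other were read. At a −log10 q of at least 5, which leaves few del/fl peaks in the domains, the peak number ratio of del/fl to del/del was 0.383 in place of 3.45 and the pileup ratio 0.814 in place of 1.13. The pileup ratio was 1.21 without division by tags and 1.09 with peaks up to 3 kb apart joined. Separated domains made up 59.3% with that strict threshold and 13.5% when del/fl peaks founded them, where the founding peaks fix a high del/fl cover. Joined domains made up 3.70% with the strict threshold, 52.2% with peaks up to 3 kb apart joined, and 60.2% and 56.7% when read in libraries that did not found them. The cause of these shifts was not tested.

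Leaving out each library in turn gave 914 to 1124 domains, differences in cover of 17.3 to 24.1 points, 91.5% to 98.4% separated, 82.3% to 91.1% joined and pileup ratios of 1.11 to 1.14. The peak number ratio ran from 3.16 to 6.73, the latter without del/del replicate 1. The difference in autosomal peaks over 20 kb ran from -26 to 12 and was 12 when del/del replicate 1 was left out and 6 without del/fl replicate 2, against -7 as reported, so its sign rests on single libraries. With the replicate number as a block the difference in cover was 20.8 points, the pileup ratio 1.13 and the autosomal difference -7 (exact permutation p = 0.5). With 2 blocks this permutation test cannot go below 0.5, so nothing is read from it. The labels do not say that numbers mark shared lines, so the libraries are not shown to be pairs. Over 6673 X windows of 20 kb the deviations of same-numbered libraries had r = 0.0133 across windows. Such an r cannot see a shift common to all windows. Number 2 had more X peaks over 20 kb than number 1 in both genotypes, with 1144 against 902 in del/del and 330 against 187 in del/fl. The source of that shift was not tested. The number of called peaks limits what is seen: sequence between peaks has no value, and a gap can hold mark below the threshold.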
